A study of Homo sapiens with 21 samples.

Results

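The mitochondrial chromosome (chrM, human build hg38) was examined on its 2 strands in crosslinking data for 4 RNA-binding proteins. Its members are all crosslinked sequence clusters that the authors listed on chrM, taken by chromosome and split by strand. They number 425 of the 745515 clusters in the 9 libraries, 170 on the minus strand and 255 on the plus strand. A cluster is a stretch of genome covered by overlapping reads, and every cluster in these lists held at least 5 reads.

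The study compared nuclease treatments in PAR-CLIP, in which cells take up 4-thiouridine, ultraviolet light fixes proteins to the labelled RNA, and the fixed base is later read as C in place of T. All cells were the Flp-In T-REx 293 line (from human embryonic kidney) carrying a stably integrated, FLAG-HA-tagged copy of the protein under study, so each protein was a tagged transgene product on top of the cell's own. All 9 libraries shared 100 uM 4-thiouridine for 8 to 12 h, 0.3 J/cm2 of light, purification on anti-FLAG beads and the fluorescent form of the protocol. They were CPSF1 at 0.5 U/ul of RNase I, FUBP3 at 0.15, 0.5 and 1.5 U/ul, KHSRP at 0.15, 0.5 and 1.5 U/ul, and AGO2 at 1.5 and 0.15 U/ul. CPSF1 is a subunit of the complex that recognises polyadenylation signals, FUBP3 and KHSRP are related proteins with KH-type RNA-binding domains, and AGO2 carries microRNAs. There was 1 library per condition, so no difference below has a replicate check, and the intervals given are 95% Wilson or ratio intervals that cover counting error only; reads without molecular identifiers are not independent molecules.

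Human mitochondrial DNA is a circle that is transcribed along both strands into long RNAs, from which the tRNAs are cut out to release the rRNAs and mRNAs. RNA of the plus strand carries both rRNAs, most tRNAs and all mRNAs but MT-ND6. RNA of the minus strand carries MT-ND6, the remaining tRNAs and long stretches antisense to the other genes, most of which are normally degraded. The control region, which holds no gene, contains the promoters, and RNA that starts at the light-strand promoter runs through it on the minus strand and also primes DNA replication.

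Minus-strand clusters are shown first, since the largest chrM cluster of each of the 9 libraries lay on that strand. They come from the 5 minus-strand loci with the highest mean percent of chrM reads, a mean that weights each library alike. Some clusters with more reads are therefore not printed. The one antisense to MT-ND4 held 37 reads, while an unprinted cluster of FUBP3 at 0.15 U/ul (chrM:10014-10170) held 285. Each sequence is that of the cluster with the most reads in its locus, or, for MT-CYB, of the clusters up to 300 bases long. Letters run 5' to 3' along the named strand, and capitals mark every run of at least 3 G.
Control region, chrM:136-306, minus strand: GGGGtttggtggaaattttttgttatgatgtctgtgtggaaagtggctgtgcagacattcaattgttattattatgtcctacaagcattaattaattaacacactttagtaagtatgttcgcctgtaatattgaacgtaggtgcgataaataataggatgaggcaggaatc
MT-ND6 end, chrM:14110-14204, minus strand: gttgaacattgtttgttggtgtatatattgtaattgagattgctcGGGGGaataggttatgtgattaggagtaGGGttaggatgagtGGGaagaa
Antisense to MT-ND4, chrM:11437-11481, minus strand: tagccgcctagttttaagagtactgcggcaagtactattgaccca
Antisense to MT-CYB, chrM:15809-15882, minus strand: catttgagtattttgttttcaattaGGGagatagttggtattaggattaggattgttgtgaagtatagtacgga
Antisense to MT-ND5, chrM:12618-12755, minus strand: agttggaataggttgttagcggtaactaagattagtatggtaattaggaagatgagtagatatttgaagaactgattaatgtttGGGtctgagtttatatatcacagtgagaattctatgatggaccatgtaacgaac
Of these 5 sequences 4 held a run of G, and the one antisense to MT-ND4, found mainly with AGO2, held none. G and T made up 59.6% of the control-region sequence, 70.5% of the MT-ND6 one, 48.9% of that antisense to MT-ND4, 68.9% of that antisense to MT-CYB and 58.7% of that antisense to MT-ND5, against 58.8% of the bases of clusters outside chrM.

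The plus-strand clusters chosen for comparison are the largest of the MT-ND5, MT-ND3, MT-CO1 and MT-RNR2 loci. The MT-ND5 cluster lies across from the minus-strand cluster printed above for that gene, so the pair shows both strands of overlapping sequence.
MT-ND5, chrM:12573-12693, plus strand: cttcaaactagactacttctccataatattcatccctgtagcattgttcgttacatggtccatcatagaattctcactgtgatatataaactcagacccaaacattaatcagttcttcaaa
MT-ND3, chrM:10142-10371, plus strand: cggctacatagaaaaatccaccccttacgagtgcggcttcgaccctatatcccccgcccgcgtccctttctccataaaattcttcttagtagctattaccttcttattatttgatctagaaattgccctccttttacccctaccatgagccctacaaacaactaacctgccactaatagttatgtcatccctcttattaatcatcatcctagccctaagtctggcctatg
MT-CO1, chrM:6204-6265, plus strand: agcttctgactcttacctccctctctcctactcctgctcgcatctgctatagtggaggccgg
MT-RNR2, chrM:3138-3226, plus strand: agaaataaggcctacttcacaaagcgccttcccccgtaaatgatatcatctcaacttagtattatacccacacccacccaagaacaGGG
Runs of C were more frequent than runs of G in these sequences. The MT-ND3 cluster held 10 runs of at least 3 C and no run of G, and the MT-RNR2 cluster held 4 runs of C and 1 of G.

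The libraries differed in size. The 9 lists held 180426 reads (CPSF1) to 2172248 reads (KHSRP at 0.15 U/ul), and 2374 to 180358 clusters, the AGO2 lists being the shortest. Reads on chrM numbered 2712 for CPSF1, 5396, 5437 and 2874 for FUBP3 at rising dose, 2189, 1299 and 708 for KHSRP at rising dose, and 287 and 75 for AGO2 at 1.5 and 0.15 U/ul. The AGO2 values rest on 8 and 5 clusters. A minimum of 5 reads is a larger share of a shallow library than of a deep one, so shares were also computed with a minimum scaled to each library's depth, an alternative chosen after the data were seen.

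Mitochondrial clusters made up a small part of every list, and as a share of reads it was largest with CPSF1 and smallest with AGO2. They held 1.503% of the cluster reads of CPSF1 (1.45 to 1.56), 0.320%, 0.275% and 0.355% of those of FUBP3 at 0.15, 0.5 and 1.5 U/ul, and 0.101%, 0.143% and 0.354% of those of KHSRP at the same doses. In AGO2 they held 0.0854% at 1.5 U/ul and 0.0253% at 0.15 U/ul. At 0.5 U/ul the CPSF1 share was 5.46 times the FUBP3 share (5.22 to 5.72) and 10.5 times the KHSRP share (9.81 to 11.2). With the minimum scaled to depth these shares were 1.503% for CPSF1, 1.14% for FUBP3 and 0.432% for KHSRP, so the gap between CPSF1 and FUBP3 depended on that choice. So did the order, since FUBP3 at 1.5 U/ul then stood at 1.80%, above CPSF1. By number of clusters chrM held 0.337% of the list in CPSF1, 0.0303% to 0.108% in FUBP3 and KHSRP, and 0.337% and 0.206% in AGO2 at 1.5 and 0.15 U/ul, so AGO2 was not the lowest by that count.

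FUBP3 had a larger mitochondrial share than KHSRP at the lower doses. At 0.15, 0.5 and 1.5 U/ul the ratio of FUBP3 over KHSRP was 3.18 (3.03 to 3.34), 1.92 (1.81 to 2.04) and 1.00 (0.924 to 1.09). The KHSRP library at 1.5 U/ul was also the shallowest of these 6, the lists at that dose holding 810326 reads for FUBP3 and 200210 for KHSRP. With the minimum scaled to depth, the log2 ratio was 1.99, 1.41 and 1.86 at the 3 doses. At 1.5 U/ul the direction turned with the setting: the log2 ratio was -1.02 with at least 10 reads per cluster, -0.45 by distinct sequences and -0.44 without the largest chrM cluster of each library.

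The share at the highest dose was close to that at the lowest for FUBP3 and several times as high for KHSRP and AGO2. The ratio of 1.5 over 0.15 U/ul was 1.11 (1.06 to 1.16) for FUBP3, 3.51 (3.22 to 3.82) for KHSRP and 3.37 (2.61 to 4.35) for AGO2. For KHSRP the log2 ratio of 1.81 was 0.57 with the minimum scaled to depth.

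The strands divided these reads differently from library to library, and no order by dose held in both FUBP3 and KHSRP. Minus-strand reads made up 40.3% of chrM reads for CPSF1. They were 66.8%, 42.1% and 73.5% for FUBP3 at 0.15, 0.5 and 1.5 U/ul, and 42.5%, 77.2% and 56.6% for KHSRP at the same doses. For AGO2 at 1.5 U/ul they were 82.2% (77.4 to 86.2), and for AGO2 at 0.15 U/ul 32.0% (22.5 to 43.2). FUBP3 was thus lowest at the middle dose, where KHSRP was highest. By number of clusters the minus strand never exceeded the plus strand: it held 20.0% to 50.0% of the chrM clusters of a library.

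**Figure D1:**
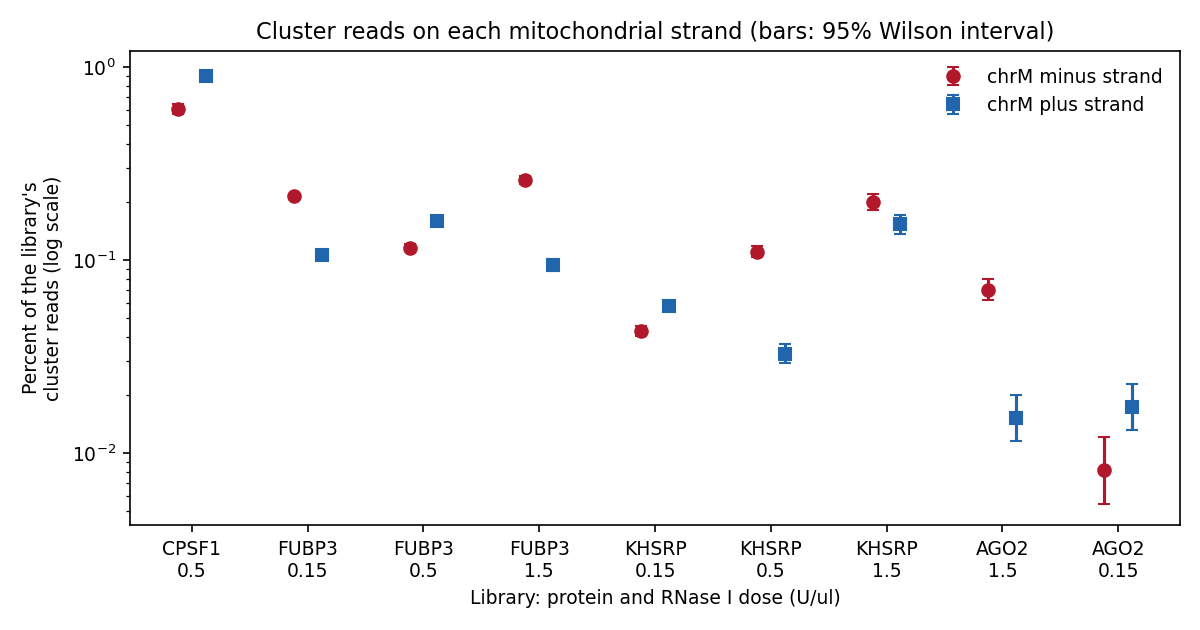
Percent of each library's cluster reads on the minus (circles) and plus (squares) strand of chrM, on a log axis, by protein and RNase I dose; bars are 95% Wilson intervals. Minus-strand points lie above plus-strand points in 5 of the 9 libraries.

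Taken strand by strand, FUBP3 and KHSRP differed on different strands at different doses. At 0.15 U/ul the minus-strand share was 5.00 times as high in FUBP3 (4.65 to 5.37) and the plus-strand share 1.84 times as high (1.71 to 1.97). At 0.5 U/ul the minus-strand shares were close, with a ratio of 1.05 (0.972 to 1.13), while the plus-strand share was 4.87 times as high in FUBP3 (4.32 to 5.49). At 1.5 U/ul the ratio was 1.30 (1.17 to 1.45) on the minus strand and 0.614 (0.538 to 0.701) on the plus strand. In AGO2 the minus-strand share was 8.66 times as high (5.69 to 13.2) at 1.5 over 0.15 U/ul, and both libraries had 51 plus-strand reads. That ratio sets 4 minus-strand clusters with 236 reads against 1 cluster with 24 reads. Of the 236 reads, 171 lay in the control-region locus, which was not listed at 0.15 U/ul. At the 1 locus listed in both, antisense to MT-ND4, the counts were 37 and 24. The log2 ratio there was 0.44 with a counting interval of 0.74 either way, so it did not move beyond counting error.

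Single clusters carried much of the minus-strand share. Without the chrM cluster with the most reads, the minus strand held 31.8% of chrM reads for CPSF1, 44.5%, 30.0% and 59.8% for FUBP3, 24.3%, 71.2% and 51.9% for KHSRP, and 56.0% and 0% for AGO2 at 1.5 and 0.15 U/ul. That cluster lay on the minus strand in all 9 libraries, so a lower value is fixed by the construction. In FUBP3 at 0.15 U/ul its loss put the plus strand ahead, and in the other 8 libraries the strand that was ahead stayed so.

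Clusters were assigned to genes by strand from RefSeq gene spans. The minus strand was almost wholly unannotated in the deposited lists: of the 174 chrM clusters with no gene name, 163 lay on it. By position, 139 of the 170 minus-strand clusters were antisense to a gene, 24 lay outside genes and 7 overlapped MT-ND6. Of the 255 plus-strand clusters, 244 overlapped a gene in sense, 8 were antisense and 3 lay outside genes. Of the 251 clusters that had a deposited name, 249 carried the same gene by both sources; the other 2 lie where MT-ATP8 and MT-ATP6 overlap.

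All 13 mitochondrial mRNAs and both rRNAs had at least 1 sense cluster, and all 12 mRNA genes of the plus strand also had an antisense cluster. Of the 22 tRNA genes only MT-TG, the glycine tRNA, had a sense cluster. No cluster was antisense to an rRNA gene. Summed over the 9 libraries, 6117 reads were minus-strand antisense, 3955 minus-strand outside genes and 1622 MT-ND6, against 7430 plus-strand mRNA reads, 1613 rRNA reads and 87 tRNA reads.

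**Figure D2:**
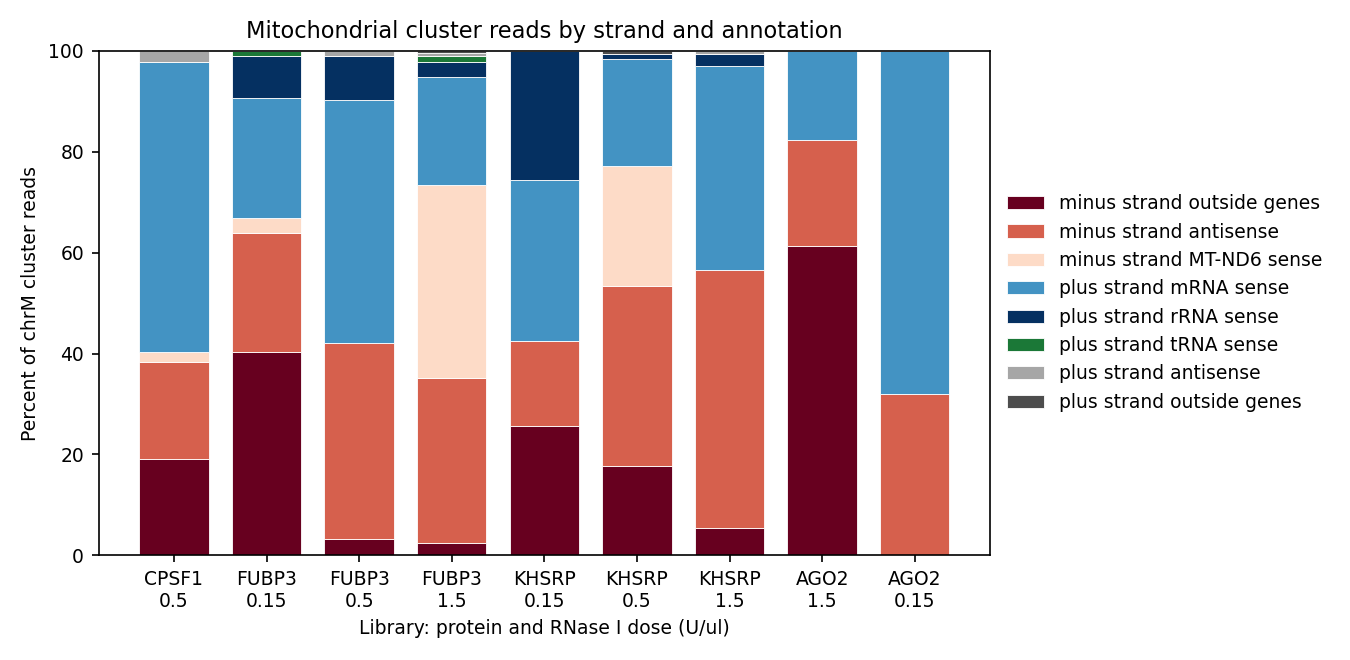
Percent of each library's chrM cluster reads by strand and annotation; each bar adds up to all chrM reads of 1 library. Minus-strand antisense reads are present in every library, from 16.9% (KHSRP at 0.15 U/ul) to 51.1% (KHSRP at 1.5 U/ul).

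The control-region locus (chrM:136-307, minus strand) had the highest mean share of chrM reads. It held 354 reads in CPSF1, 2169 and 67 in FUBP3 at 0.15 and 1.5 U/ul, 527, 213 and 39 in KHSRP at rising dose, and 171 in AGO2 at 1.5 U/ul. It was not listed in FUBP3 at 0.5 U/ul or in AGO2 at 0.15 U/ul. It was thus 40.2% of chrM reads in FUBP3 at 0.15 U/ul and 59.6% in AGO2 at 1.5 U/ul, but 2.33% in FUBP3 at 1.5 U/ul.

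Per 100000 cluster reads the control-region locus stood at 196 in CPSF1, and at 129 and 8.27 in FUBP3 at 0.15 and 1.5 U/ul. In KHSRP it was steadier, at 24.3, 23.5 and 19.5. In the 2 RNase T1 libraries, made with the standard protocol and not among the 9, it held 681 (FUBP3) and 532 reads (KHSRP).

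The locus at the end of MT-ND6 (chrM:14040-14206, minus strand) was large in 2 libraries only. MT-ND6, a subunit of respiratory complex I, spans chrM:14149-14673, so this locus covers the gene's 3' end and runs on into sequence antisense to MT-ND5. It held 976 reads in FUBP3 at 1.5 U/ul, 272 in KHSRP at 0.5 U/ul and 7 in CPSF1, and was not listed in the other 6 libraries. Over the whole gene, MT-ND6 had 1102 sense reads in FUBP3 at 1.5 U/ul, 309 in KHSRP at 0.5 U/ul, 159 in FUBP3 at 0.15 U/ul and 52 in CPSF1.

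The AGO2 libraries shared 1 mitochondrial locus, antisense to MT-ND4, the gene of another complex I subunit (chrM:11437-11490, minus strand). It held 37 reads in AGO2 at 1.5 U/ul and 24 at 0.15 U/ul, or 11.0 and 8.11 per 100000 cluster reads. Outside AGO2 it had 8 reads in CPSF1 and 5 in FUBP3 at 0.15 U/ul, and was not listed elsewhere. Reads with a T-to-C change were 94.6% and 100% of the reads of its AGO2 clusters at 1.5 and 0.15 U/ul.

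Antisense to MT-CYB, the cytochrome b of complex III, FUBP3 at 0.5 U/ul had 1 cluster of 438 nt with 941 reads, the longest of the named loci (chrM:15471-15908). The same locus had 70 reads in CPSF1, 13 in FUBP3 at 0.15 U/ul, and 34, 103 and 70 in KHSRP at rising dose, and was not listed in FUBP3 at 1.5 U/ul or AGO2. Antisense to MT-ND5 (chrM:12557-12778) there were 47 reads in CPSF1, 42 and 212 in FUBP3 at 0.15 and 0.5 U/ul, and 107, 80 and 66 in KHSRP. This locus too was not listed in FUBP3 at 1.5 U/ul.

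On the plus strand, a stretch inside MT-ND3, a complex I subunit gene, was the most widely listed locus (chrM:10142-10371), present in 8 of the 9 libraries. It held 44 reads in CPSF1, 353, 704 and 209 in FUBP3, 10, 19 and 33 in KHSRP, and 6 in AGO2 at 0.15 U/ul. It and the MT-ND5 locus (chrM:12573-12770) were the only 2 listed in all 6 FUBP3 and KHSRP libraries. The MT-ND5 locus held 24, 313 and 8 reads in FUBP3 and 82, 16 and 22 in KHSRP. Listing at the same locus does not mean a common site, since long clusters join shorter ones. At MT-ND3 the clusters of KHSRP at 0.15 U/ul (chrM:10172-10199) and CPSF1 (chrM:10303-10332) do not overlap, and a FUBP3 cluster of 230 nt joins them. At MT-ND5 the cluster of FUBP3 at 1.5 U/ul (chrM:12728-12755) overlaps none of KHSRP at 0.5 or 1.5 U/ul.

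Other plus-strand loci led in single libraries. The MT-CO1 locus (chrM:6202-6268), in a catalytic subunit gene of cytochrome c oxidase, held 178 reads in CPSF1 and 60, 15 and 19 in KHSRP, and was not listed in FUBP3. The MT-RNR2 locus (chrM:3138-3226), in the large rRNA, held 151 reads in FUBP3 at 0.5 U/ul and 201 and 12 in KHSRP at 0.15 and 0.5 U/ul. The MT-ND4L locus (chrM:10470-10673) held 25 reads in CPSF1, 168, 303 and 32 in FUBP3, and 41 and 18 in KHSRP at 0.5 and 1.5 U/ul.

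Of the 188 loci made by merging overlapping clusters on 1 strand, 95 were listed in 1 library, 8 in at least 6, and none in all 9. A locus absent from a list had no cluster passing the authors' criteria there, which does not show that it had no reads. For this reason no ratio of a single locus is given against a library that lacks it. Features, compared below, sum clusters over a gene or outside genes, so a ratio between them can set different loci against each other.

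**Figure D3:**
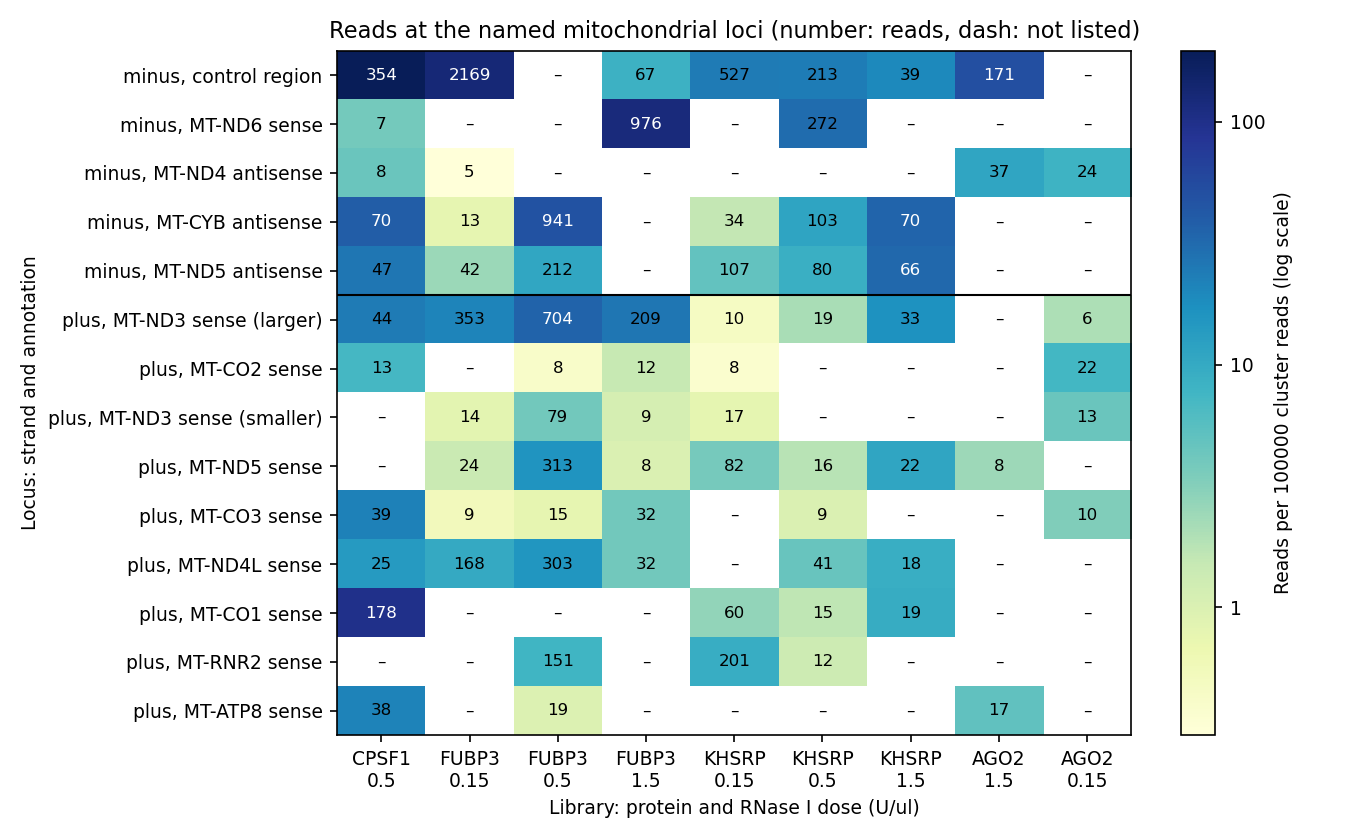
Reads at the 14 named loci (rows, minus strand above the line, plus strand below) in the 9 libraries (columns); colour gives reads per 100000 cluster reads on a log scale, and a dash marks a locus not listed. The control-region row reads 2169 in FUBP3 at 0.15 U/ul and a dash at 0.5 U/ul, and the MT-ND6 row is filled in 3 libraries.

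Sense reads of the complex I mRNAs were listed with every protein. MT-ND3 had 44 reads in CPSF1, 367, 783 and 218 in FUBP3, 27, 19 and 33 in KHSRP, and 19 in AGO2 at 0.15 U/ul. MT-ND4 had 266 in CPSF1, 91, 414 and 123 in FUBP3, and 73, 31 and 70 in KHSRP. MT-ND5 had 184 in CPSF1, 162, 380 and 29 in FUBP3, 135, 59 and 53 in KHSRP, and 18 in AGO2 at 1.5 U/ul. As shares of cluster reads, 6 of the 7 complex I mRNAs were highest at 0.5 U/ul in FUBP3, the other being MT-ND6, highest at 1.5 U/ul. In KHSRP 5 of the 7 were highest at 1.5 U/ul, while MT-ND2 was listed at 0.15 U/ul only and MT-ND6 at 0.5 U/ul only. Those 5 values rest on 18 to 70 reads in the shallowest KHSRP library. There 20 reads stand at 9.99 per 100000 cluster reads, against 0.921 at 0.15 U/ul. How far depth sets this order was not tested.

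Of the cytochrome c oxidase mRNAs, MT-CO1 had 353 reads in CPSF1, 76, 101 and 17 in FUBP3, and 180, 33 and 19 in KHSRP. MT-CO3 had 56 in CPSF1, 149, 274 and 74 in FUBP3, 9 in KHSRP at 0.5 U/ul and 10 in AGO2 at 0.15 U/ul. MT-CO2 had 13 in CPSF1, 52, 59 and 41 in FUBP3, 65 and 9 in KHSRP at 0.15 and 0.5 U/ul, and 16 and 22 in AGO2 at 1.5 and 0.15 U/ul. Of the rRNAs, MT-RNR2 had 314 and 481 reads in FUBP3 at 0.15 and 0.5 U/ul and 559, 12 and 16 in KHSRP, while MT-RNR1 had 143 and 88 in FUBP3 at 0.15 and 1.5 U/ul. Neither rRNA was listed in CPSF1 or AGO2.

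Per kilobase of gene and 1000000 cluster reads, CPSF1 was highest on the sense strand of MT-ATP8, a subunit of the ATP synthase, at 1821, then on MT-ND1 at 1386 and MT-CO1 at 1269. FUBP3 was highest antisense to MT-ND3 at 0.15 U/ul (728), on MT-ND3 sense at 0.5 U/ul (1145) and on MT-ND6 at 1.5 U/ul (2590.4). KHSRP was highest antisense to MT-TR, the arginine tRNA, at 0.15 U/ul (255), on MT-ND6 at 0.5 U/ul (650.0) and antisense to MT-ND4L at 1.5 U/ul (891). The value antisense to MT-TR rests on 1 cluster of 36 reads (chrM:10415-10513) that runs past the gene's 65 nt into MT-ND4L. Both MT-ND6 values likewise count all reads of a cluster that runs past the gene's end. AGO2 was highest on MT-ATP8 at 1.5 U/ul (245) and on MT-ND3 at 0.15 U/ul (186). The AGO2 value on MT-ATP8 rests on 1 cluster of 17 reads where MT-ATP8 and MT-ATP6 overlap, which the deposited list names MT-ATP6; without it the sequence antisense to MT-CO2 led, at 100.1. No gene led at all doses of a protein. These are levels of listed clusters, not of the RNAs, and the data hold no measure of RNA abundance.

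Within genes, the strand with more reads differed from gene to gene. MT-CYB had 121 antisense reads in CPSF1, 63, 973 and 73 in FUBP3, and 91, 117 and 70 in KHSRP, against 112 sense reads in CPSF1, 51, 41 and 28 in FUBP3, and 32, 11 and 9 in KHSRP. The antisense strand of MT-CYB therefore held more reads than the sense strand in all 7 of these libraries. For MT-ND5 it did so in 6 of these 7, with 241 antisense reads in CPSF1, 216, 324 and 184 in FUBP3, and 192, 99 and 130 in KHSRP. For MT-CO1 the sense strand was ahead in the same 7, and antisense reads never exceeded 28.

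Features past a 2-fold difference were counted next, a feature being all clusters of 1 gene on its sense or antisense strand with at least 20 reads in both libraries. For FUBP3 over KHSRP at 0.15 U/ul, 4 of 14 mitochondrial features were higher, where 30.7% of all features were, and 0 were lower, where 14.6% were. At 0.5 U/ul, 6 of 11 were higher (all features 20.7%) and 1 was lower (all features 16.7%). At 1.5 U/ul, 0 of 9 were higher (all features 5.74%) and 7 were lower (all features 25.0%). The minimum of 20 reads stands at 2.47 per 100000 cluster reads in FUBP3 and 9.99 in KHSRP at that dose, so a feature low in KHSRP could not enter, and nothing is read from this last count. MT-ND6, for example, had 1102 reads in FUBP3 at 1.5 U/ul, was not listed in KHSRP and was not counted.

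At 0.15 U/ul the largest of these ratios were at MT-ND3. FUBP3 had 424 antisense reads against 20 in KHSRP, a log2 ratio of 4.77, and 367 sense reads against 27, a log2 ratio of 4.13. Most of the FUBP3 antisense reads lay where KHSRP had no listed cluster. FUBP3 had antisense clusters of 285, 126 and 13 reads. Only the one of 13 reads (chrM:10363-10402) overlapped the KHSRP cluster of 20 reads (chrM:10347-10402). Minus-strand clusters outside genes followed with 2179 against 562 reads, a log2 ratio of 2.32. At 0.5 U/ul the highest was MT-ND4 sense, with 414 reads in FUBP3 against 31 in KHSRP, a log2 ratio of 2.61. The 1 lower feature at that dose was the minus strand outside genes, with 181 reads in FUBP3 against 229 in KHSRP, a log2 ratio of -1.46. Of these KHSRP reads, 213 lay in the control-region locus (chrM:136-307), which was not listed in FUBP3 at that dose. At the locus listed in both (chrM:16208-16253) FUBP3 was higher, with 134 reads against 16 in KHSRP. Per 100000 cluster reads these were 6.78 and 1.77.

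By dose, FUBP3 at 1.5 over 0.15 U/ul had 4 of 17 mitochondrial features higher (all features 11.4%) and 3 lower (all features 5.27%). The extremes were MT-ND6, with 1102 reads at 1.5 U/ul against 159 at 0.15 U/ul and a log2 ratio of 3.85, and the minus strand outside genes, with 72 against 2179 reads and a log2 ratio of -3.86. Of the 1102 MT-ND6 reads, 976 lay in the locus at the gene's end, which was not listed at 0.15 U/ul. The MT-ND6 locus listed at both doses (chrM:14622-14673) held 126 reads at 1.5 U/ul and 159 at 0.15 U/ul. Per 100000 cluster reads these were 15.5 and 9.44. For KHSRP, 8 of 9 were higher (all features 23.1%) and 0 lower (all features 6.76%). Here 20 reads stand at 9.99 per 100000 cluster reads at 1.5 U/ul and at 0.921 at 0.15 U/ul, so features low at 1.5 U/ul could not enter, and nothing is read from the count. Among those left out were MT-RNR2, with 16 reads at 1.5 U/ul against 559 at 0.15 U/ul, and MT-CO1, with 19 against 180. Of the 9, the one that was not higher was the minus strand outside genes, with 39 reads at 1.5 U/ul against 562 at 0.15 U/ul and a log2 ratio of -0.41. For AGO2, 0 of 1 features was higher (all features 6.05%) or lower (all features 9.55%).

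Features listed in 1 library of a pair only were common on chrM. Among features with at least 20 reads in either library, they made up 44.4%, 28.0% and 45.5% of mitochondrial features for FUBP3 and KHSRP at 0.15, 0.5 and 1.5 U/ul. Of all features they made up 8.44%, 15.7% and 23.6%. Those outside chrM are again named genes only, so the 2 sets are unlike in kind. Positions in FUBP3 and KHSRP were nonetheless shared more often than elsewhere. At 0.15 U/ul, 33.3% of the 75 FUBP3 clusters on chrM overlapped a KHSRP cluster on the same strand, against 11.9% of all FUBP3 clusters, and at 1.5 U/ul 9.09% did, against 2.30% of all. Between doses, 43.6% of the chrM clusters of FUBP3 at 1.5 U/ul overlapped one at 0.15 U/ul, against 13.9% of all, and for KHSRP 46.7% did, against 19.5% of all. In AGO2, 12.5% of the 8 chrM clusters at 1.5 U/ul overlapped one at 0.15 U/ul (2.24 to 47.1), against 40.4% of all, and 20.0% of the 5 at 0.15 U/ul overlapped one at 1.5 U/ul (3.62 to 62.4), against 39.2% of all, too few clusters to tell these apart. Clusters cover more of the small chrM than of other chromosomes, and how far that sets these shares was not tested.

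Some clusters on the 2 strands of chrM faced each other. Of the minus-strand clusters, 6 of 31 in CPSF1, 10 of 31, 14 of 29 and 4 of 26 in FUBP3, and 3 of 16, 6 of 21 and 3 of 11 in KHSRP overlapped a plus-strand cluster of the same library. None of the 4 and 1 minus-strand clusters of AGO2 at 1.5 and 0.15 U/ul did. Outside chrM, at most 0.0845% of the clusters of any library overlapped one on the opposite strand. Clusters are much denser on the small chrM, and how far that density alone gives such overlaps was not tested.

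Base composition separated the strands. Over the 9 libraries, minus-strand clusters were 31.7% G and 10.3% C, and plus-strand clusters were 11.2% G and 31.6% C. G and T together made up 63.9% of minus-strand bases, 39.0% of plus-strand bases and 58.8% of the bases of clusters outside chrM. When the plus-strand clusters were read on their opposite strand, G and T made up 61.0%, so the excess of G and T on the minus strand is close to that of the strand itself at these places. This measures cluster sequence and not binding preference.

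Motifs were searched on the cluster's own strand, with overlapping matches allowed between motifs, and a match is a description of letters only. GGG was present in 61.8% of minus-strand clusters (54.3 to 68.7), in 9.02% of plus-strand clusters and in 19.1% of clusters outside chrM. The 170 minus-strand clusters are pooled over 9 libraries and fall in 82 loci. The same sequence can therefore count more than once, and the interval is too narrow. By library the share outside chrM ran from 14.7% (KHSRP at 0.15 U/ul) to 42.9% (AGO2 at 1.5 U/ul). On the opposite strand of the plus-strand clusters GGG was present in 57.6%. TGTA was present in 31.2% of minus-strand, 9.41% of plus-strand and 29.5% of other clusters, and TTTG in 34.1%, 8.24% and 34.8% of them in the same order. TTTT was present in 27.1%, 12.9% and 37.4%, and TATA in 18.8%, 20.4% and 21.9%. AATAAA, the usual polyadenylation signal of nuclear genes, was present in 2.35%, 2.75% and 2.38%. In CPSF1 alone it was present in 6.45% of the 31 minus-strand clusters, 2.44% of the 41 plus-strand clusters and 14.7% of clusters outside chrM. Chance matches rise with length, and the median chrM cluster length was 32 to 54 nt on the minus strand and 27 to 40 nt on the plus strand, against 28 to 31 nt over all clusters of a library.

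**Figure D4:**
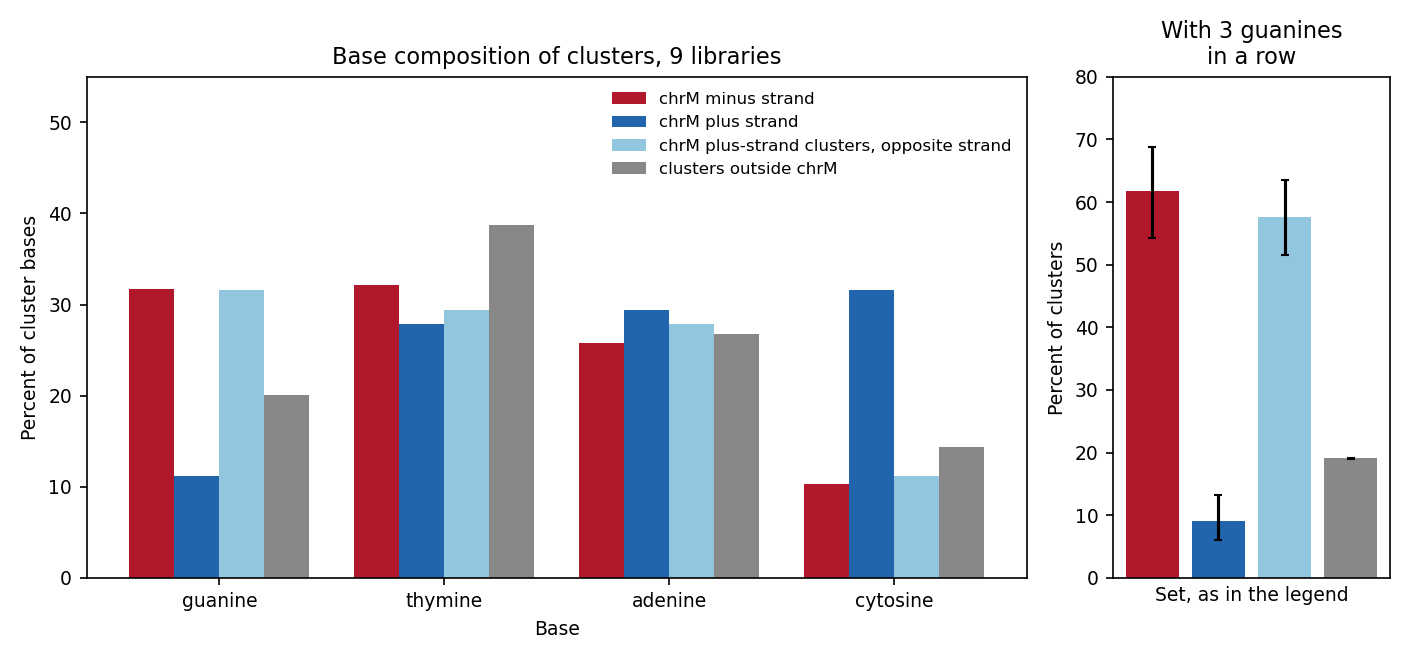
Left, percent of guanine, thymine, adenine and cytosine in minus-strand, plus-strand, opposite-strand-read plus and non-mitochondrial clusters of the 9 libraries; right, percent of clusters with 3 guanines in a row, with 95% Wilson intervals. Minus-strand clusters (61.8% with such a run) stand near the opposite strand of the plus-strand clusters (57.6%). They stand above both the plus strand (9.02%) and clusters outside chrM (19.1%). Clusters are pooled, so a place listed in several libraries counts more than once and the intervals are too narrow.

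The share of reads with 1 T-to-C change, the mark of a crosslinked 4-thiouridine, was lower on chrM than elsewhere in CPSF1, FUBP3 and KHSRP. On the minus strand it was 59.9% in CPSF1, 37.9%, 31.5% and 36.3% in FUBP3, and 48.3%, 42.6% and 34.1% in KHSRP. On the plus strand it was 45.3% in CPSF1, 49.3%, 50.0% and 67.6% in FUBP3, and 43.7%, 67.1% and 50.5% in KHSRP. Outside chrM it was 93.3% in CPSF1, 83.5%, 83.2% and 90.3% in FUBP3, and 73.5%, 78.8% and 90.3% in KHSRP. In AGO2 at 1.5 and 0.15 U/ul it was 66.1% and 100% on the minus strand, 47.1% and 50.0% on the plus strand, and 60.3% and 60.0% outside chrM. The minus strand was below the plus strand in all 3 FUBP3 libraries and above it in CPSF1 and AGO2, with KHSRP divided. The clusters compared were unlike in size. The median chrM cluster of a library held 18.5 to 44 reads on the minus strand and 11 to 29 on the plus strand. Over all clusters of a library the median was 6 to 9 reads. T made up 32.2% of minus-strand, 27.8% of plus-strand and 38.7% of other cluster bases. Counted per T read, the order against clusters outside chrM turned in 2 libraries. In KHSRP at 0.5 U/ul the plus strand was then higher, with 8.64% of T read as C against 6.65%. In AGO2 at 1.5 U/ul the minus strand was then lower, with 8.01% against 9.87%. How far cluster size or T content sets the T-to-C share was not tested.

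**Figure D5:**
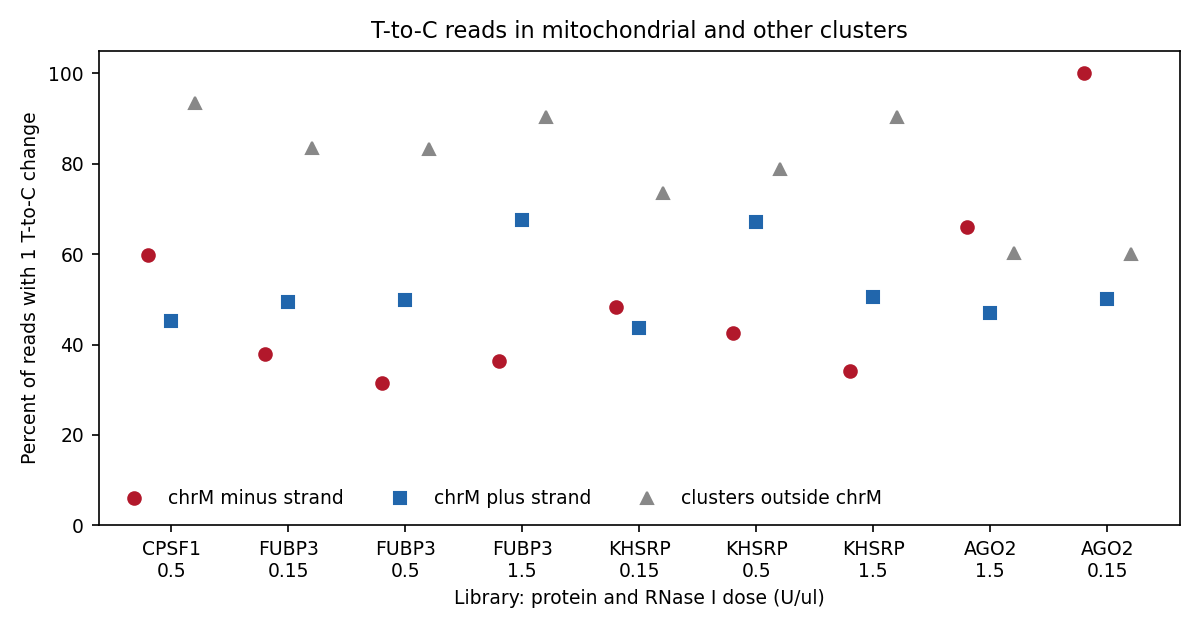
Percent of reads with 1 T-to-C change in minus-strand (circles), plus-strand (squares) and non-mitochondrial (triangles) clusters of each library. In the 7 CPSF1, FUBP3 and KHSRP libraries both chrM points lie below the triangle; in AGO2 the minus-strand points (66.1% and 100%) lie above it.

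Mitochondrial clusters held more reads than other clusters and also more distinct sequences. Reads per distinct sequence were 1.09 to 6.01 on the minus strand and 1.13 to 7 on the plus strand. Over all clusters of a library they were 1.34 to 7.02. The median plus-strand cluster held 6 distinct sequences in CPSF1, 5, 5 and 2 in FUBP3, and 9.5, 5 and 7 in KHSRP. The median minus-strand cluster held 4 distinct sequences in CPSF1, 5, 9 and 3 in FUBP3, and 9.5, 9 and 18 in KHSRP, and the median cluster outside chrM held 1 in CPSF1 and in each FUBP3 library and 3, 2 and 1 in KHSRP. Counting distinct sequences in place of reads left the minus-strand share of chrM within a few points, from 32.8% in AGO2 at 0.15 U/ul to 83.3% in AGO2 at 1.5 U/ul. Nuclear copies of mitochondrial genes can share reads with chrM: clusters named for them numbered 0 to 5 in a library, with at most 77 reads (CPSF1), and in AGO2 at 0.15 U/ul 1 such cluster held 9 reads beside the 75 on chrM.

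In RNase T1 libraries of the same proteins, which were shallower, mitochondrial shares were larger. At 0.5 U/ul, FUBP3 had 0.275% with RNase I and 1.67% with RNase T1 under the standard protocol, a ratio of 0.165, with 1975646 and 179853 cluster reads in these lists. KHSRP had 0.143% with RNase I and 3.17% with RNase T1, a ratio of 0.0453, with 905433 and 125960 cluster reads. With the RNase I minimum scaled to the depth of the T1 list, the RNase I share was 1.14% for FUBP3 and 0.564% for KHSRP, and the ratio to RNase T1 was 0.687 (0.655 to 0.720) for FUBP3 and 0.178 (0.165 to 0.192) for KHSRP. The minus strand held 42.1% of chrM reads with RNase I and 43.1% with RNase T1 for FUBP3, and 77.2% with RNase I and 16.6% with RNase T1 for KHSRP. Enzyme, protocol and depth changed together in that comparison, and enzyme and protocol cannot be told apart. U2AF1, a splicing factor labelled with 250 uM 4-thiouridine for 2 h and digested with RNases A and T1, had 0.715% at 1.5 U/ml and 0.243% at 15 U/ml.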

How the data were processed

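The deposited cluster lists give, per cluster, its position, strand, sequence, read count and the number of distinct sequences, and per the file headers these counts are not normalized; the T-to-C fraction of each cluster is the authors' own value and was used only for medians. Per the submitters' processing notes, bcl2fastq 2.20.0 and cutadapt 1.15 were used, with build hg38; which aligner and which cluster caller were used is not given in the sources used here. AGO2 lists of the radioactive protocol were not analysed here.

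Positions were checked against RefSeq promoter sequences of GRCh38.p14: all 181 clusters that lay inside one had the same letters. Clusters with strand were assigned to the 37 mitochondrial genes by RefSeq spans, with the strand of each gene taken from general knowledge of the mitochondrial map, since the table has none. Loci are chains of clusters of the 9 libraries on 1 strand, each overlapping the chain by at least 1 nt. Any 2 clusters of a locus need not overlap. Shares are percentages of a library's cluster reads. A feature needed at least 20 reads in both libraries, and a 2-fold difference counted. With 1 library per condition no test was run. The named genes are all 13 mRNAs, both rRNAs and any tRNA with at least 1% of a library's chrM reads. The named loci are the 10 with the highest mean percent of chrM reads and the top locus of each strand in each library; that mean weights AGO2 at 0.15 U/ul, with its 75 reads, as much as any other. The members and lists were chosen with earlier results of these data known. Alternatives were a minimum of 10 reads per cluster, distinct sequences in place of reads, leaving out the largest chrM cluster, and, added after seeing the data, a minimum matched to depth: the same share as 5 reads in CPSF1, which is 6 to 61 reads elsewhere (for RNase I against RNase T1, as 5 reads in the T1 list). The scripts, checked on simulated data, used Python 3.11.15 with pandas 2.3.3, numpy 2.4.6, scipy 1.17.1 and matplotlib 3.10.9.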

Additional observations from a re-analysis of the deposited data

Results flagged for a closer look

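The plus-strand share of cluster reads moved in opposite directions between 1.5 and 0.15 U/ul in the 2 proteins that have all 3 RNase I doses. At 1.5 over 0.15 U/ul its log2 ratio was -0.18 for FUBP3, with 0.0942% at 1.5 U/ul and 0.106% at 0.15 U/ul, and 1.40 for KHSRP, with 0.153% at 1.5 U/ul and 0.0579% at 0.15 U/ul. Neither protein moved one way across the doses: at 0.5 over 0.15 U/ul the log2 ratio was 0.58 for FUBP3 and -0.82 for KHSRP. With the cluster minimum scaled to each library's depth, an alternative chosen after the data were seen, the log2 ratio of 1.5 over 0.15 U/ul was 0.06 for FUBP3 (-0.09 to 0.20) and 0.46 for KHSRP (0.26 to 0.66), so the directions were no longer opposite. The difference between the proteins was not tested, as each rests on 1 library per dose.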

How the results depend on the processing

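Of 52 recomputed values, 19 stayed within the counting interval of the reported value, and 5 changed sign, 3 of them for FUBP3 over KHSRP at 1.5 U/ul, where the interval of the reported value includes 0. The cause was not tested. The log2 ratio of the chrM share, FUBP3 over KHSRP, was 1.67, 0.94 and 0.00 at 0.15, 0.5 and 1.5 U/ul. With at least 10 reads per cluster it was 2.00 at 0.15 and -1.02 at 1.5 U/ul, with distinct sequences 1.76 and -0.45, and without the largest chrM cluster 1.33 and -0.44. With the minimum matched to depth it was 1.99, 1.41 and 1.86, so at 1.5 U/ul its direction depended on the setting. For 1.5 over 0.15 U/ul in FUBP3, 0.15 became 0.056, -0.031 (distinct sequences), 0.29 and 0.43 under these settings in the same order. In KHSRP, 1.81 became 3.08, 2.18, 2.06 and 0.57, and in AGO2 1.75 became 1.00 without the largest cluster. With the minimum matched to depth, the plus-strand log2 ratio of 1.5 over 0.15 U/ul was 0.059 in FUBP3, in place of -0.18, and 0.46 in KHSRP, in place of 1.40; RNase I over RNase T1 was -0.54 in FUBP3, in place of -2.60, and -2.49 in KHSRP, in place of -4.47.

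The difference in minus-strand percent of chrM reads, FUBP3 minus KHSRP, was 24.3, -35.1 and 16.8 points at rising dose. Without the largest cluster it was 20.2, -41.2 and 7.92, and with the minimum matched to depth 18.2, -57.7 and 21.3. At the matched minimum KHSRP kept 6 chrM clusters at 0.15 U/ul and 8 at 0.5 U/ul. Those 8 all lay on the minus strand, which then held 100% of chrM reads. With at least 10 reads the difference was -40.1 points at 0.5 U/ul, and with distinct sequences 21.0 at 1.5 U/ul. For 1.5 minus 0.15 U/ul, without the largest cluster 6.64 became 15.3 points in FUBP3 and 14.1 became 27.6 in KHSRP, which was 3.31 with the minimum matched to depth. No difference in minus-strand percent changed sign.

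No paired analysis was possible because each condition had 1 library and no test was run. The AGO2 values rest on the fewest chrM reads, 287 and 75 at 1.5 and 0.15 U/ul. A locus missing from a list has only an unknown level below the authors' criteria.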

Other observations

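Further values by gene follow. Antisense to MT-ATP8, a subunit gene of the ATP synthase, FUBP3 at 1.5 U/ul had 170 reads, against 7 at 0.5 U/ul and none listed at 0.15 U/ul, and CPSF1 had 8. A minus-strand locus over MT-TR, the arginine tRNA gene, and its neighbours was listed in 6 libraries, with clusters assigned to MT-TR itself in 2. MT-TG had clusters on both strands, with 53 and 34 sense reads in FUBP3 at 0.15 and 1.5 U/ul and 79 and 19 antisense reads in FUBP3 at 0.5 and 1.5 U/ul.

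Antisense to MT-CO2, a subunit gene of cytochrome c oxidase, AGO2 at 1.5 U/ul had 23 reads, KHSRP at 0.5 U/ul had 52 and FUBP3 at 1.5 U/ul had 22. The sense strand of MT-ND6, printed as minus-strand sequence above, had only 5 clusters facing it on the plus strand, with 58 reads in CPSF1, 17 and 12 in FUBP3 at 0.5 and 1.5 U/ul, and 5 in KHSRP at 1.5 U/ul.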
